A study of Mus musculus with 9 samples.

Results

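The 9 genes described here are Pck1, G6pc, Fbp1, Pcx, Pklr, Slc2a2, Igfbp1, Irs2 and Ppargc1a, which stand for glucose production by the liver and for its response to insulin. They were chosen by symbol and matched to Ensembl gene identifiers on the mouse build GRCm38. All 9 were found among the 56719 genes of each count file and all 9 passed the filter on low counts, as did 17704 genes in all.

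The fasted liver makes glucose from lactate, alanine and glycerol. Pyruvate carboxylase and phosphoenolpyruvate carboxykinase bring pyruvate up to phosphoenolpyruvate, fructose-1,6-bisphosphatase reverses the committed step of glycolysis, and glucose-6-phosphatase releases free glucose. Insulin represses several of these genes by excluding the transcription factor FOXO1 from the nucleus, while glucagon and glucocorticoids induce them. Igfbp1 and Irs2 are FOXO1 targets used as readouts of low insulin action in hepatocytes, and Pklr belongs to the opposite, glucose-using direction.

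Liver messenger RNA was sequenced from C57BL/6J mice in 3 groups of 3 libraries. FMT-Con A mice were gavaged for 4 weeks with faeces of mice carrying hepatitis induced by concanavalin A (Con A, a jack bean lectin; through T cell activation it causes acute liver injury, and the labels name the model AIH, autoimmune hepatitis) and received 10 mg/kg of Con A by tail vein on the day of collection. Con A mice were given buffered saline during those weeks and the same injection. WT mice were given buffered saline throughout. No group that received faeces without Con A was analysed here, and the hours between injection and collection and the feeding state of the mice are not given in the sources used here. The sex entry of the labels is female and the housing text says male. The 4 Y-linked genes examined had between 241 and 6192 counts in every library.

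Total counts per library ran from 21580482 to 29466806 in FMT-Con A, from 21772376 to 25890947 in Con A and from 20513051 to 22770276 in WT. All 13 hepatocyte markers had counts in every library. Their summed level was 52027 to 57517 CPM (read counts scaled to a common total, here the library total) in FMT-Con A, 73180.3 to 76346 in Con A and 82486 to 100720 in WT. The 24 skeletal muscle markers summed to 21954, 2054 and 21834 CPM in FMT-Con A 1, 2 and 3, to 13.3, 24.7 and 2275 CPM in Con A 1, 2 and 3, and to 55.0 to 70.8 CPM in WT. The 10 markers of pancreatic islet and kidney tubule summed to at most 0.602 CPM, and the hormone genes Ins1, Ins2 and Gcg were at 0 counts in all 9 libraries. In bulk tissue, fewer hepatocytes and less of a transcript per hepatocyte cannot be told apart.

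Con A livers had lower messenger RNA levels than WT livers for the last enzyme of glucose release and for the glucose carrier, and higher levels for the pyruvate carboxylase and bisphosphatase steps. G6pc, Slc2a2, Pklr and Pck1 fell, Igfbp1, Irs2, Pcx and Fbp1 rose, and Ppargc1a did not pass the threshold. That is 4 higher and 4 lower of 9, where 32.5% of all tested genes were higher and 30.9% lower (63.4% in either direction). At such shares the count does not set the 9 genes apart from others. The test here and below is edgeR's quasi-likelihood test over all 17704 genes and all 9 libraries, two-sided, with Benjamini-Hochberg adjustment and a threshold of 0.05. The median log2 fold change was -0.22 over the members and 0.01 over all tested genes.

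FMT-Con A livers were lower than Con A livers in Pck1, Igfbp1, Pcx and G6pc, while Fbp1, Irs2, Slc2a2, Pklr and Ppargc1a did not pass. That is 4 lower of 9, where 10.6% of tested genes were lower and 16.8% passed in either direction. The members were chosen with earlier results of these data known, so setting their count beside these shares is not a test. By edgeR 0 members were higher, where 6.26% of tested genes were, and 0 were higher at an unadjusted p under 0.05, by DESeq2 and by limma-voom. The median log2 fold change was -0.55 over the members and -0.01 over all tested genes. Against WT, FMT-Con A livers had 4 members higher (Igfbp1, Irs2, Fbp1 and Pcx; 31.2% of tested genes) and 4 lower (Slc2a2, G6pc, Pck1 and Pklr; 27.9%), where 59% of tested genes passed in either direction. The 3 comparisons share libraries and are not independent of each other.

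**Figure D1:**
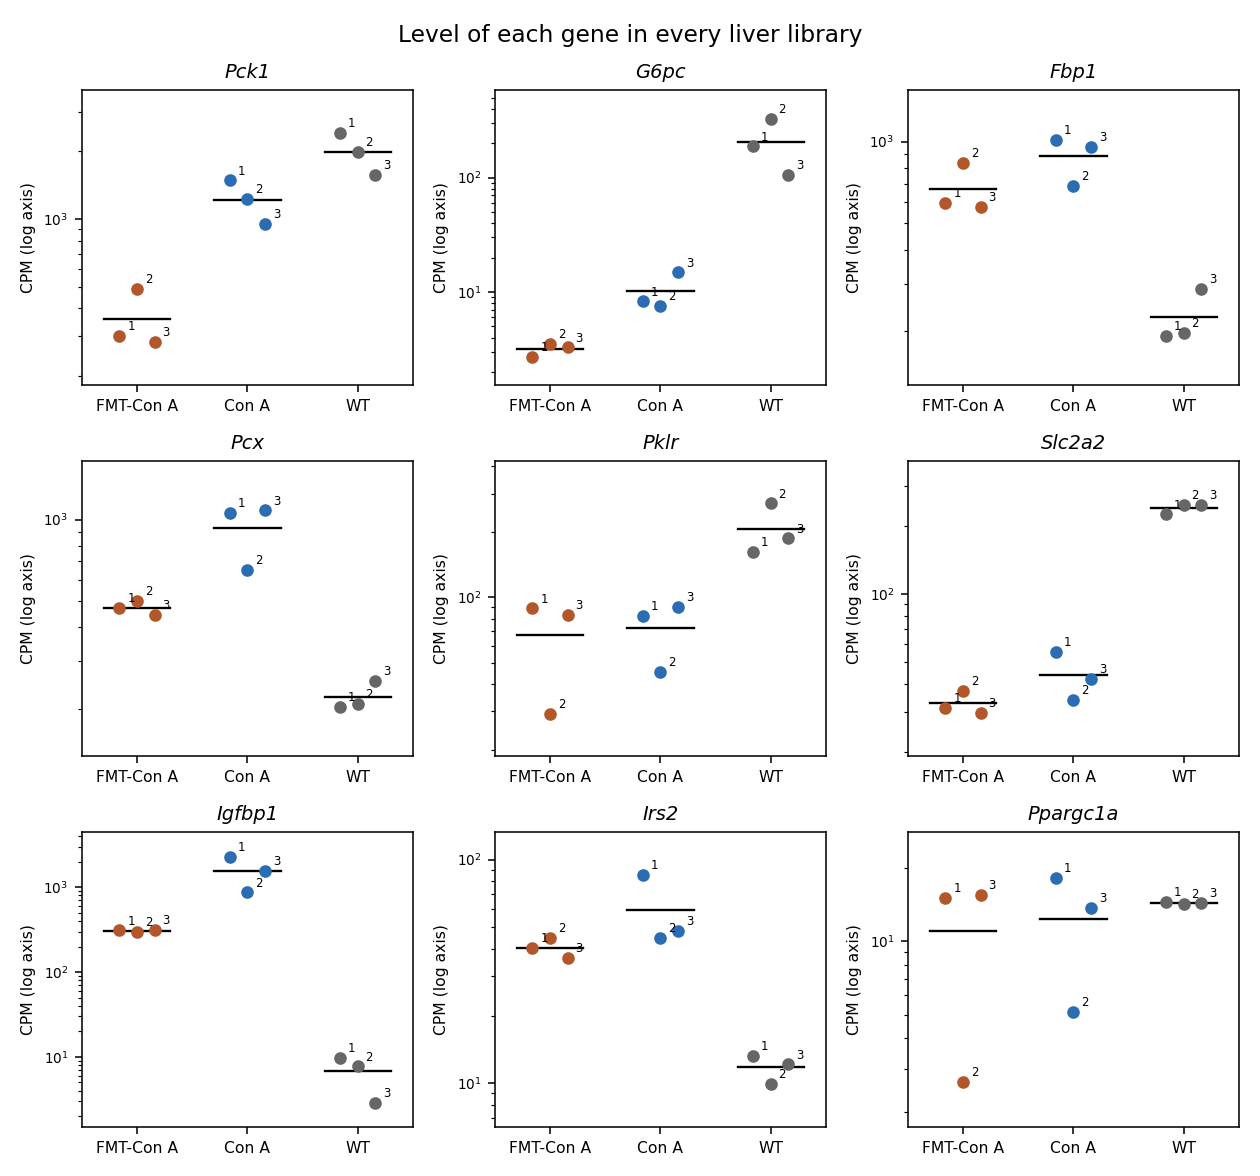
Level of each of the 9 genes in CPM (log axis) in every library of FMT-Con A, Con A and WT. Points are libraries with their replicate number and bars are group means; G6pc averages 3.17 CPM in FMT-Con A, 10.2 CPM in Con A and 207 CPM in WT, and Ppargc1a is low in FMT-Con A 2 and Con A 2 only.

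Pcx, pyruvate carboxylase, makes oxaloacetate from pyruvate in mitochondria. It had 470.0, 499.9 and 444 CPM in FMT-Con A, 1056, 652 and 1081 CPM in Con A, and 203, 208 and 253 CPM in WT. The 3 groups did not overlap, with FMT-Con A between the others. The log2 fold change was 2.07 in Con A against WT (SE 0.21, edgeR adjusted p = 2.19e-05) and -0.98 in FMT-Con A against Con A (SE 0.20, edgeR adjusted p = 0.0149). The second of these did not pass without Con A 1 (adjusted p = 0.068), without FMT-Con A 1 (0.0659), without FMT-Con A 3 (0.0649) or with the 2 groups fitted alone (0.0535).

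Pck1, cytosolic phosphoenolpyruvate carboxykinase, turns oxaloacetate into phosphoenolpyruvate and is a classical insulin-repressed gene. It had 302, 489.9 and 283 CPM in FMT-Con A, 1484, 1229 and 948 CPM in Con A, and 2407, 1996 and 1564 CPM in WT. The groups did not overlap, and the gap between the highest Con A and the lowest WT library was narrow. The log2 fold change was -1.77 in FMT-Con A against Con A (SE 0.27, edgeR adjusted p = 0.00501) and -2.47 in FMT-Con A against WT (SE 0.28, edgeR adjusted p = 5.92e-05). In Con A against WT it was -0.70 (SE 0.27, edgeR adjusted p = 0.0399). That smaller call was lost without WT 1, WT 2, Con A 2, Con A 3 or FMT-Con A 1, with adjusted p between 0.0501 and 0.132. Pck2, the mitochondrial form, stood at 1.97 ± 0.122 CPM in FMT-Con A, 2.12 ± 0.115 CPM in Con A and 2.75 ± 0.296 CPM in WT (SD, n = 3 each) and did not pass in any of the 3 comparisons (edgeR adjusted p from 0.0742 to 0.766).

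Fbp1, the liver fructose-1,6-bisphosphatase, went the other way from Pck1. It had 593, 834 and 574 CPM in FMT-Con A, 1017, 688 and 957 CPM in Con A, and 192, 198 and 287 CPM in WT. Both injected groups lay above WT in every library and overlapped each other. On the log2 scale the change was 1.98 in Con A against WT (SE 0.24, edgeR adjusted p = 6.85e-05), 1.56 in FMT-Con A against WT (SE 0.24, edgeR adjusted p = 0.000379) and -0.41 in FMT-Con A against Con A (edgeR adjusted p = 0.236).

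G6pc, the catalytic subunit of glucose-6-phosphatase, carries out the last step to free glucose and had the largest fall of the 9 genes against WT in both injected groups. It had 2.71, 3.51 and 3.28 CPM in FMT-Con A, 8.27, 7.52 and 14.8 CPM in Con A, and 187, 327 and 105 CPM in WT. The 3 groups did not overlap, and the WT libraries were spread widely among themselves. Behind these levels stood 74 to 86 counts per library in FMT-Con A, 155 to 358 in Con A and 2515 to 6990 in WT. Con A was 20.2 times below WT, a log2 fold change of -4.33 ± 0.43 (SE; edgeR adjusted p = 1.82e-05). FMT-Con A was 65.3 times below WT, or -6.03 ± 0.47 (SE; edgeR adjusted p = 6.29e-06). FMT-Con A against Con A gave -1.69 (SE 0.41, edgeR adjusted p = 0.0236), which did not pass without Con A 1 (adjusted p = 0.0575), Con A 3 (0.0628), FMT-Con A 1 (0.0976) or FMT-Con A 3 (0.0792), nor by limma-voom (0.055). Slc37a4, the carrier that brings glucose-6-phosphate to this enzyme in the endoplasmic reticulum, was at 73.0 ± 4.57 CPM in FMT-Con A, 121 ± 24.4 CPM in Con A and 124 ± 30.2 CPM in WT (SD, n = 3 each). It was lower in FMT-Con A than in Con A (log2 fold change -0.73, edgeR adjusted p = 0.037) and did not pass in Con A against WT (-0.03, edgeR adjusted p = 0.889). With libraries scaled to the summed hepatocyte markers, the lower level of Slc37a4 in FMT-Con A than in Con A was not seen (-0.07, edgeR adjusted p = 0.797).

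Slc2a2 encodes GLUT2, the glucose carrier of the hepatocyte surface. It had 31.4, 37.4 and 29.9 CPM in FMT-Con A, 55.6, 34.2 and 42.2 CPM in Con A, and 224, 248 and 247 CPM in WT. Every injected library was far below every WT library, and the injected groups overlapped. As log2 fold changes, the differences were -2.44 in Con A against WT (SE 0.19, edgeR adjusted p = 3.83e-06), -2.87 in FMT-Con A against WT (SE 0.19, edgeR adjusted p = 2.63e-06) and -0.42 in FMT-Con A against Con A (edgeR adjusted p = 0.13). Without Con A 2, the last of these passed (-0.55, adjusted p = 0.038).

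Pklr, the liver pyruvate kinase, runs the glycolytic step that gluconeogenesis bypasses. It had 89.0, 29.1 and 83.3 CPM in FMT-Con A, 82.0, 45.6 and 90.6 CPM in Con A, and 162, 271 and 187 CPM in WT. The second library was the lowest in both injected groups, and both groups lay below WT. Against WT the log2 fold change was -1.51 in Con A (SE 0.41, edgeR adjusted p = 0.0089) and -1.62 in FMT-Con A (SE 0.41, edgeR adjusted p = 0.0069), and FMT-Con A against Con A gave -0.11 (edgeR adjusted p = 0.867). Exons of Pklr overlap those of Hcn3, an ion channel gene on the opposite strand. Hcn3 had 247, 41 and 207 counts in FMT-Con A, 65, 70 and 72 in Con A, and 1084, 2348 and 891 in WT, and since the strand setting of the counting is not given in the sources used here, reads of the pair cannot be told apart.

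Igfbp1, a secreted binder of insulin-like growth factors, is made by hepatocytes when insulin action is low and also in acute stress. It had 310.0, 297 and 315 CPM in FMT-Con A, 2286, 867 and 1540.1 CPM in Con A, and 9.66, 7.72 and 2.88 CPM in WT. The 3 groups were far apart, the FMT-Con A libraries close together and the Con A libraries spread. Con A was 232 times above WT, a log2 fold change of 7.86 ± 0.56 (SE; edgeR adjusted p = 2.43e-06). FMT-Con A was 45.5 times above WT, or 5.51 ± 0.50 (SE; edgeR adjusted p = 1.63e-05). FMT-Con A against Con A gave -2.35 (SE 0.43, edgeR adjusted p = 0.00962), a call that held with any single library left out.

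Irs2, an adaptor of the insulin receptor whose gene insulin represses in liver, had 40.4, 44.4 and 36.3 CPM in FMT-Con A, 85.1, 44.6 and 47.8 CPM in Con A, and 13.2, 9.88 and 12.1 CPM in WT. Both injected groups were above WT in every library. FMT-Con A lay just below Con A with almost no gap. The log2 fold change was 2.33 in Con A against WT (SE 0.24, edgeR adjusted p = 2.64e-05), 1.78 in FMT-Con A against WT (SE 0.24, edgeR adjusted p = 0.000184) and -0.55 in FMT-Con A against Con A (edgeR adjusted p = 0.124). A transcript on the opposite strand, 9530052E02Rik, overlaps its exons and had at most 6 counts in a library.

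Ppargc1a encodes PGC-1alpha, a coactivator that raises gluconeogenic genes in fasted liver and is also abundant in skeletal muscle. It had 15.0, 2.66 and 15.4 CPM in FMT-Con A, 18.2, 5.14 and 13.6 CPM in Con A, and 14.5, 14.2 and 14.3 CPM in WT. WT libraries were nearly equal, and the second library of each injected group stood below the rest. The log2 fold change was -0.22 in Con A against WT (edgeR adjusted p = 0.751), -0.15 in FMT-Con A against Con A (edgeR adjusted p = 0.877) and -0.37 in FMT-Con A against WT (edgeR adjusted p = 0.593). Without Con A 2, Con A against WT gave 0.14. FMT-Con A 1 and 3 were also the libraries with the most skeletal muscle transcripts, and FMT-Con A 2, which had the fewest of the 3, had the lowest Ppargc1a level of the group. Without FMT-Con A 1 and 3 the group against WT gave -2.43 (edgeR adjusted p = 0.0188), a value of 1 library whose spread is borrowed from the other groups, and Con A alone spanned 5.14 to 18.2 CPM. Con A 1, the library highest in Ppargc1a, had 13.3 CPM of muscle markers. The part of muscle transcripts in these levels was not tested.

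**Figure D2:**
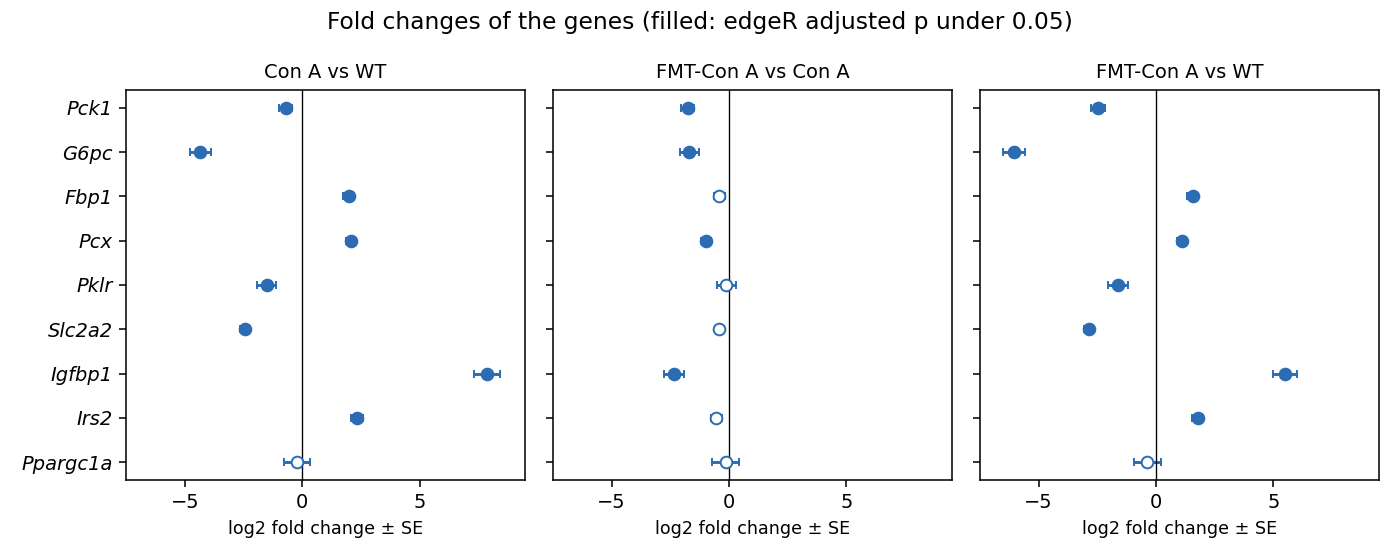
log2 fold changes of the 9 genes with standard errors in Con A vs WT, FMT-Con A vs Con A and FMT-Con A vs WT; filled points passed edgeR's adjusted threshold of 0.05. Igfbp1 is highest against WT (7.86 in Con A and 5.51 in FMT-Con A), G6pc lowest (-4.33 in Con A and -6.03 in FMT-Con A), and the middle panel has 4 filled points, all below 0.

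The groups of libraries did not overlap for 8 of 9 members in Con A against WT (69.8% of tested genes), 8 of 9 in FMT-Con A against WT (69.1%) and 5 of 9 in FMT-Con A against Con A (32.7%). The summed hepatocyte markers were also lower in FMT-Con A. The fit was therefore repeated, after the data had been seen, with libraries scaled to their summed counts. Alb, the largest part of that sum, had 21710, 17395 and 21371 CPM in FMT-Con A and 32877, 32016 and 32049 in Con A. Alb, Cps1 and Ahsg were lower in every FMT-Con A library than in any Con A library, and the other markers overlapped. Against WT, Trf was higher and Apoa1 lower in every Con A library. The scale thus leans on Alb, and the markers did not move alike. On that scale the median log2 fold change over all tested genes in FMT-Con A against Con A was 0.64. Pck1 (-1.14, edgeR adjusted p = 0.00484) and Igfbp1 (-1.66, edgeR adjusted p = 0.00987) were still lower in FMT-Con A. G6pc (-1.04, edgeR adjusted p = 0.0632) and Pcx (-0.32, edgeR adjusted p = 0.153) did not pass, and Fbp1, Irs2, Slc2a2, Pklr and Ppargc1a had positive values that did not pass either. Against WT, all 8 calls held on this scale in Con A and 7 of 8 in FMT-Con A, the exception being Pklr (-0.86, edgeR adjusted p = 0.102). With FMT-Con A 2 as the only library of its group, which assumes that it varies like the other groups, 0 members passed against Con A by edgeR. Pck1 was then at -1.32 and Igfbp1 at -2.40, values that rest on 1 library.

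The promoters of Igfbp1, G6pc and Pck1, the insulin-repressed genes that were lower in FMT-Con A than in Con A, are shown as the 250 bases before the RefSeq start (GRCm38.p6), all on the plus strand, with capitals marking matches on either strand to CAAAACA, the core of the insulin response sequence bound by FOXO factors, or to TGACG, part of the cAMP response element:
Igfbp1 (chr11:7197537-7197786): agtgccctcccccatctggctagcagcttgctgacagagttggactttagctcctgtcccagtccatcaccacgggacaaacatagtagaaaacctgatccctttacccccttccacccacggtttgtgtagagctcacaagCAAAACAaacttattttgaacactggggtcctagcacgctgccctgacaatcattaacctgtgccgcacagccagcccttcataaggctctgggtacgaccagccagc
G6pc (chr11:101367466-101367715): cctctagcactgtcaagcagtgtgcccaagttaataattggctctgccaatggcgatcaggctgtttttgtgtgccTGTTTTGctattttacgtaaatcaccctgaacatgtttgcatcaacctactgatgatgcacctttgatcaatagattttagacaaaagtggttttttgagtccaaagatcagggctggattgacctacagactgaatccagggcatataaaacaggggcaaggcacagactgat
Pck1 (chr2:173152823-173153072): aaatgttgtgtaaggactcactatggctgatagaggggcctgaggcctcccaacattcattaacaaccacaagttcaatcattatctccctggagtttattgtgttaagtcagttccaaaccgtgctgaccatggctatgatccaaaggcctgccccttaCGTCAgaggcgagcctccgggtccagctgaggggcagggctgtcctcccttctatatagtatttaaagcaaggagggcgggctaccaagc

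The CAAAACA match began at -108 in Igfbp1 on the gene's own strand and at -174 in G6pc on the opposite strand, and the TGACG match at -90 in Pck1 on the opposite strand. Of the 11 RefSeq promoters of the 9 genes, 3 held CAAAACA (Igfbp1, G6pc and Irs2), 2 held TGACG (Pck1 and Ppargc1a) and 0 held GTAAACA, the FOXO consensus core. The promoters of Pcx, also lower in FMT-Con A than in Con A, held 0 matches and are not shown. Over all 32851 promoters of this length the shares were 5.56% for CAAAACA, 17.8% for TGACG and 3.17% for GTAAACA. A match is a run of letters, not a shown binding site. Positions are from the RefSeq start, which differs from the GENCODE start for some genes. The G6pc window, which ends at 101367715, runs past the GENCODE start at 101367561. Of the promoters with a match, only that of Irs2 had first bases after the start that were not found in a GENCODE transcript. The 3 promoters with CAAAACA belong to genes that moved in both directions, since Igfbp1 and Irs2 rose in Con A against WT and G6pc fell.

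Levels of different genes were compared per kilobase of exon, as TPM (length-scaled counts that sum to the same total in every library), where the order of the 9 genes differed between groups. In FMT-Con A, Fbp1 stood highest at 965 ± 143 TPM, followed by Igfbp1 at 502 ± 45.9 TPM and by Pck1 (256 ± 63.6 TPM) and Pcx (246 ± 5.96 TPM), whose ranges overlapped. In Con A, Igfbp1 stood highest at 2343 ± 995 TPM, followed by Fbp1 at 1199 ± 256 TPM and Pck1 at 810 ± 127 TPM, each overlapping the next. In WT, Pck1 stood highest at 1271 ± 284 TPM, clear of Fbp1 at 290.5 ± 71.4 TPM, and Fbp1, G6pc (186 ± 95.7 TPM), Pklr (139 ± 33.6 TPM), Pcx (102 ± 13.7 TPM) and Slc2a2 (91.0 ± 3.69 TPM) each overlapped the next (SD, n = 3 in each group). G6pc was the ninth of 9 in FMT-Con A, where it overlapped Ppargc1a, the eighth in Con A and the third in WT. The ranks were the same with the longest transcript as the length.

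**Figure D3:**
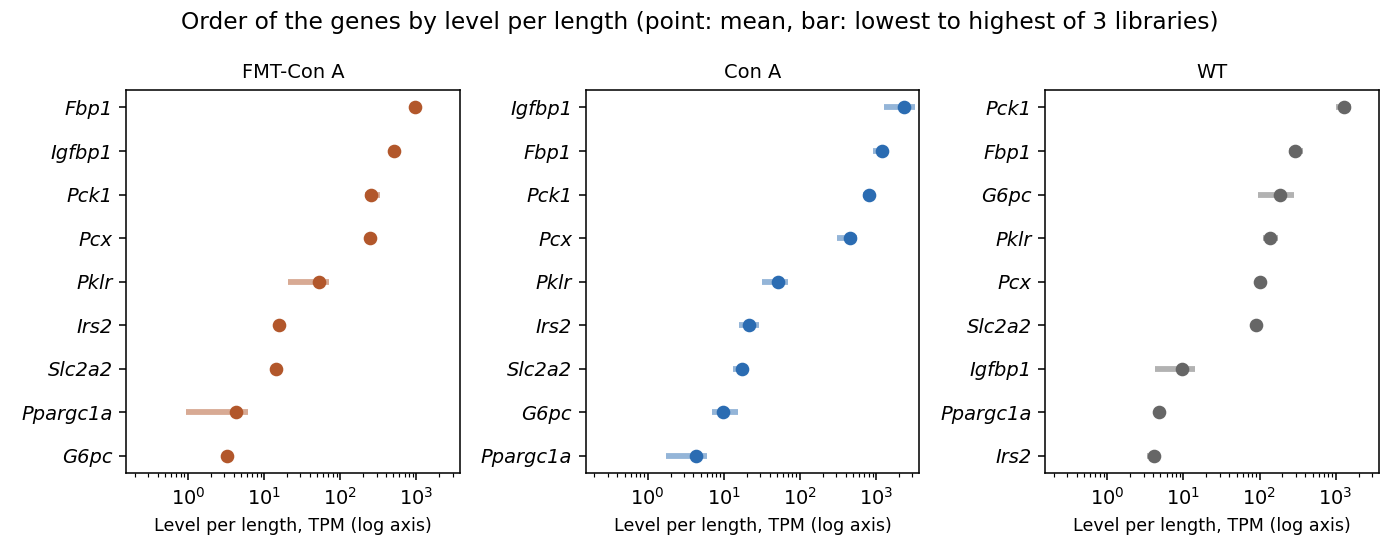
The 9 genes ordered by level per length in FMT-Con A, Con A and WT, in TPM (log axis); points are means and bars run from the lowest to the highest of 3 libraries. Fbp1 leads in FMT-Con A (965 TPM), Igfbp1 in Con A (2343 TPM) and Pck1 in WT (1271 TPM), and G6pc stands last in FMT-Con A and the third in WT.

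Other genes of glucose handling were described from 6 lists, all of whose genes were tested. In Con A against WT, 32.5% of all tested genes were higher and 30.9% lower. The other steps of gluconeogenesis had 9 of 18 genes higher, 2 lower and a median log2 fold change of 0.64. The genes with the lowest p were Ldha (3.68), Pgam1 (2.55) and Pgk1 (3.18). Pgam1 and Pgk1 encode enzymes of the reversible stretch shared with glycolysis. Glucose phosphorylation and glycolytic control had 9 of 14 higher, 3 lower and a median of 2.83, with Pfkp (4.24) and Pfkl (3.09), phosphofructokinase subunits, and Hk3 (2.58), a hexokinase. Beside these genes, the 11 neutrophil markers were summed. They came to 5969.9 to 8377 CPM in FMT-Con A, 5386 to 7366 in Con A and 23.4 to 30.3 in WT. Most of that sum in the injected groups was Lcn2. Lcn2 had 5742 to 8047 CPM in FMT-Con A, 5143 to 6907 in Con A and 12.5 to 15.4 in WT. S100a9 was the next highest in the injected groups. It had 104 to 161 CPM in FMT-Con A, 110 to 214 in Con A and 1.91 to 3.56 in WT. The part of neutrophil transcripts in the list's values was not tested.

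Glycogen metabolism had 6 of 18 genes higher, 5 lower and a median of -0.19 in Con A against WT. Gys2, the liver glycogen synthase (-1.97), and Phka2, a liver phosphorylase kinase subunit (-2.04), fell, and Pgm2 (2.48) rose. Of 23 insulin receptor signalling genes 9 were higher and 6 lower (median 0.02). With 32.5% of all tested genes higher and 30.9% lower, neither the glycogen nor the insulin count sets its list apart. Ptpn1, the phosphatase PTP1B that acts on the insulin receptor, rose by 2.55 and Trib3, a pseudokinase described as an inhibitor of AKT, by 3.35, while Grb14, an adaptor that inhibits the receptor, fell by 1.88 on the log2 scale. The receptor gene Insr was at 130.0 ± 9.63 CPM in FMT-Con A, 160.5 ± 11.3 CPM in Con A and 145 ± 2.67 CPM in WT and did not pass in any of the 3 comparisons (edgeR adjusted p from 0.102 to 0.309). Foxo1 was at 56.2 ± 3.72 CPM in FMT-Con A, 74.7 ± 9.18 CPM in Con A and 86.0 ± 13.4 CPM in WT. It did not pass in Con A against WT (log2 fold change -0.20, edgeR adjusted p = 0.243) or in FMT-Con A against Con A (-0.41, edgeR adjusted p = 0.0768), and passed in FMT-Con A against WT (-0.61, edgeR adjusted p = 0.00485). Both FMT-Con A against WT results changed with scaling to the hepatocyte markers, where Foxo1 did not pass (0.11, edgeR adjusted p = 0.609) and Insr was higher (0.57, edgeR adjusted p = 0.00361).

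In Con A against WT, where 32.5% of all tested genes were higher and 30.9% lower, 23 glucagon, cAMP and transcription genes were examined. Of these, 11 were higher and 8 lower (median -0.05). Gcgr, the glucagon receptor, was at 106 ± 11.6 CPM in FMT-Con A, 83.0 ± 9.21 CPM in Con A and 501 ± 12.6 CPM in WT, a change of -2.59 on the log2 scale in Con A against WT (edgeR adjusted p = 7.43e-07). Nr0b2, the repressor SHP, fell by 4.23 and Foxa2, a pioneer factor of liver genes, by 2.93 on the log2 scale. Of 9 IGF binding protein and IGF1 genes 1 was higher, Igfbp3 (1.09), and 3 lower, with Igfals, the acid-labile subunit of circulating IGF complexes, at -3.07 (list median -0.58). Igfbp1, which is not in this list, was at 7.86 in the same comparison. Over the 105 list genes together, 45 were higher and 27 lower in Con A against WT with TMM scaling, and 39 and 39 with upper-quartile scaling, which moved the median over all tested genes to -0.20.

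In FMT-Con A against Con A, where 16.8% of all tested genes passed, higher and lower counts were 2 and 3 of 18 for the other gluconeogenic steps (median -0.17), 2 and 7 of 14 for glycolytic control (-0.60) and 3 and 4 of 18 for glycogen (0.24). They were 1 and 4 of 23 for insulin signalling (-0.04), 2 and 5 of 23 for glucagon and transcription (-0.27) and 1 and 1 of 9 for the IGF genes (0.25), against a median of -0.01 over all tested genes. Among the lower genes were Slc2a1, the widely expressed carrier GLUT1 (-1.71, edgeR adjusted p = 0.00412), Pygl, the liver glycogen phosphorylase (-1.35, edgeR adjusted p = 0.00695), and Trib3 (-1.38, edgeR adjusted p = 0.00695). Klf15, a glucocorticoid-induced activator of gluconeogenic genes, was at -0.85 and Nr3c1, the glucocorticoid receptor, at -0.58. Foxa2 was higher (1.74, edgeR adjusted p = 0.00218). Scaled to the hepatocyte markers, Slc2a1 (-1.03), Pygl (-0.67) and Trib3 (-0.73) stayed lower and Foxa2 (2.39) higher, whereas Klf15 (-0.21) and Nr3c1 (0.07) did not pass. On that scale the lists had 5 to 13 genes higher and 0 or 1 lower, so the split between higher and lower genes of the lists depends on the scaling. Over the 105 list genes together, it was 11 higher and 24 lower with TMM, 46 and 3 with hepatocyte scaling and 14 and 18 with upper-quartile scaling.

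Several of the higher genes in that comparison are abundant in skeletal muscle and followed the muscle markers from library to library. These were picked after their values were seen. Fbp2, the muscle fructose-1,6-bisphosphatase, had 10.3, 0.855 and 8.43 CPM in FMT-Con A and 0.21, 0.145 and 0.622 CPM in Con A. Pfkm, the muscle phosphofructokinase, had 304, 28.4 and 296 CPM in FMT-Con A and 4.40, 4.08 and 36.1 CPM in Con A. Both were high where the 24 muscle markers summed to 21954 and 21834 CPM, in FMT-Con A 1 and 3, and intermediate in FMT-Con A 2 and Con A 3. The part of muscle transcripts in these changes was not tested. With FMT-Con A 1 and 3 left out, 0 genes of the 6 lists passed in either direction by edgeR, where 99 genes passed in all. That fit leaves 1 library in the group and assumes that it varies like the other groups.

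In FMT-Con A against WT, 31.2% of all tested genes were higher and 27.9% lower. There, 10 of 18 other gluconeogenic genes were higher and 3 lower (median log2 fold change 0.58). For glycolytic control, 9 of 14 genes were higher and 3 lower (2.31). Glycogen metabolism had 7 of 18 higher and 6 lower (0.42), insulin signalling 6 and 6 of 23 (-0.07), glucagon and transcription 8 and 8 of 23 (-0.01), and the IGF genes 2 and 3 of 9 (-0.04), where the median over all tested genes was 0.03. These counts depend on the scaling too, with 42 of the 105 list genes higher and 29 lower as given here, against 70 higher and 15 lower when scaled to the hepatocyte markers, a scale on which the median over all tested genes was 0.77. Gcgr was lower (-2.24, edgeR adjusted p = 2.32e-06), while Trib3 was higher (1.97, edgeR adjusted p = 0.000138).

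**Figure D4:**
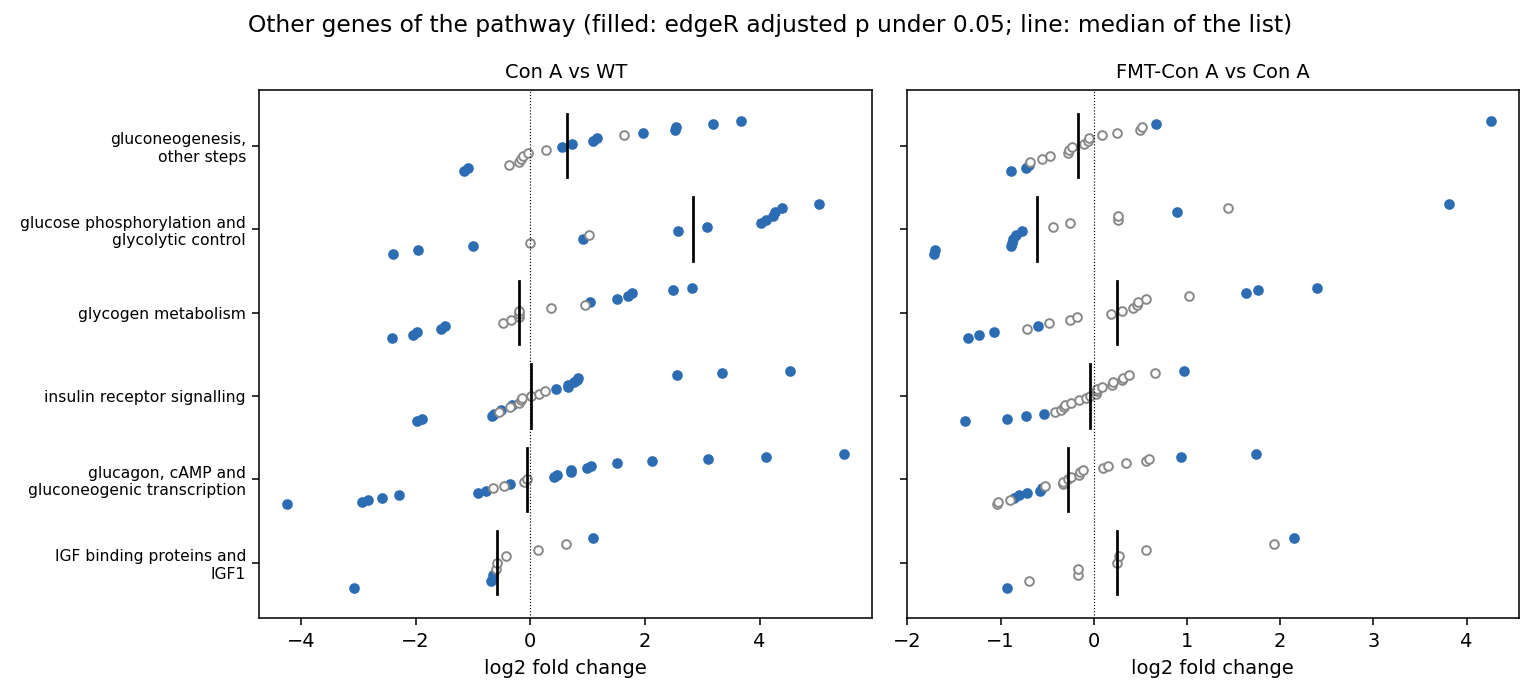
log2 fold changes of the genes of 6 lists in Con A vs WT (left) and FMT-Con A vs Con A (right); filled points passed edgeR's adjusted threshold of 0.05 and vertical lines are list medians. Glycolytic control lies to the right on the left panel (median 2.83) and to the left on the right panel (median -0.60), where the points at 4.26 and 3.81 are Fbp2 and Pfkm.

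Genes with a profile most like that of a member were found by the root mean square distance between log2 CPM profiles over the 9 libraries, each centred on its mean, among 10717 genes. They were Blm (0.15), Slco1a1 (0.27) and Abcb11 (0.28) for Pck1, Slc17a8 (0.48), Mug2 (0.54) and Lrit1 (0.67) for G6pc, and Ccrl2 (0.42), Ccl7 (0.42) and Ptgs2 (0.49) for Igfbp1. For Pklr they were Acly (0.29), Rnf144b (0.30) and Acaca (0.31), of which Acly and Acaca encode enzymes of fatty acid synthesis. For Ppargc1a they were Calcrl (0.41), Adcy9 (0.43) and Abi3bp (0.47).

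On GRCm38 (GENCODE vM21, positions counted from 1) all 9 are protein-coding. Pck1 (ENSMUSG00000027513) lies at chr2:173153048-173159273 and G6pc (ENSMUSG00000078650) at chr11:101367561-101377903. Fbp1 (ENSMUSG00000069805) lies at chr13:62864753-62888282 and Pcx (ENSMUSG00000024892) at chr19:4510472-4621752. Pklr (ENSMUSG00000041237) lies at chr3:89136142-89146784 and Slc2a2 (ENSMUSG00000027690) on the same chromosome at chr3:28697903-28731359. Igfbp1 (ENSMUSG00000020429) lies at chr11:7197782-7202546, Irs2 (ENSMUSG00000038894) at chr8:10984681-11008458 and Ppargc1a (ENSMUSG00000029167) at chr5:51454250-51567726.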

How the data were processed

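The deposited values are read counts per gene, 1 file per library, without normalisation by the authors. The submitters' processing notes name CASAVA, HISAT2, featureCounts and GRCm38 (mm10). Their versions, the annotation, the strand setting and how multi-mapping reads were counted are not given in the sources used here. Per the labels, polyadenylated RNA from Trizol extracts was sequenced from both ends.

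Symbols and exons came from GENCODE vM21 and promoters from RefSeq (GRCm38.p6). Counts were fitted in edgeR 4.0.16 (R 4.3.3) with TMM scaling, filterByExpr (minimum count 10) and 1 term per group over all 9 libraries, leaving 6 residual degrees of freedom. The procedure was also run on simulated data in which few genes changed, in random directions, so that run could not test the scaling. Each SE was derived from the log2 fold change and its F statistic. CPM are per library size and TMM factor, except for marker sums, which are per library total. Alternatives used DESeq2 1.42.0 and limma 3.58.1 (voom), other scalings and filters, the replicate number as a block, and libraries left out. The labels number the mice of a group and say no more about whether libraries are separate animals, so p-values reflect only how far libraries of a group lie apart, which may be technical. For the closest pair, FMT-Con A 1 and 3, the median squared difference per gene was 2.56 times that expected from sampling noise alone.

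The members and lists were chosen with earlier results of these data known. Named list genes were drawn from the 3 with the lowest p in each list and comparison and from fixed genes (Foxo1, Insr, Pck2, Trib3 and Slc37a4; 1 more is not reported here); those chosen after their values were seen are named as such.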

Additional observations from a re-analysis of the deposited data

How the results depend on the processing

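Over the alternatives run, the 8 member calls of FMT-Con A against WT and of Con A against WT kept their direction; the exceptions to passing were Pck1 in Con A against WT with 1 library left out, given above, and Pklr in FMT-Con A against WT when scaled to the hepatocyte markers. The count of 4 lower members in FMT-Con A against Con A ran from 2 to 5 with 1 library left out, was 2 when scaled to the hepatocyte markers (an alternative added after seeing the data) and 0 without FMT-Con A 1 and 3, which leaves 1 library in the group. Values that changed sign belong to differences that had not passed and did not pass afterwards. In FMT-Con A against Con A, hepatocyte scaling gave 0.23 for Fbp1, 0.60 for Pklr, 0.24 for Slc2a2, 0.11 for Irs2 and 0.59 for Ppargc1a. With 1 library left out, Pklr ran from -0.36 to 0.26 there (positive without Con A 3, at 0.077, and without FMT-Con A 2) and Ppargc1a from -0.50 to 0.32 (positive without Con A 1, at 0.24, and without FMT-Con A 2). Ppargc1a ran from -0.60 to 0.14 in Con A against WT (positive without Con A 2) and from -0.67 to 0.0925 in FMT-Con A against WT (positive without FMT-Con A 2), where hepatocyte scaling gave 0.42.

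All genes called in FMT-Con A against Con A numbered 2981, and 664 to 1828 without FMT-Con A 1, FMT-Con A 3, Con A 1 or WT 1, 1156 with the 2 groups alone, 8924 with hepatocyte scaling and 99 without FMT-Con A 1 and 3. Upper-quartile scaling moved the median of all genes in Con A against WT to -0.20 and changed no member call, while the list genes called there became 39 higher and 39 lower, against 45 and 27. Same-numbered libraries deviated together in some pairs and not in others (correlations of deviations from -0.22 to 0.34), so the numbers were not taken to pair them. A replicate block left the member calls at 4 higher and 4 lower in Con A against WT and 4 lower in FMT-Con A against Con A, and called 11093 and 2663 genes. The thinnest counts behind called members were those of G6pc in FMT-Con A (74 to 86 per library) and Igfbp1 in WT (69 to 211).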
